A study of Sus scrofa with 18 samples.

Results

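The genes described here encode the machinery of the lysosome in pig skeletal muscle. They are the cathepsins, which are lysosomal proteases, the subunits of the vacuolar proton pump, and a set of other lysosomal hydrolases, membrane proteins and lipid carriers together with the transcription factor TFEB. Members were chosen by name alone, as every probe set annotated as a cathepsin with a letter, as a gene starting with ATP6V, or as 1 of 16 further named genes. The rule uses no measured value, though it was drawn up with earlier results of these data known. In all, 46 genes with 85 probe sets qualified, out of 12503 gene names and 23999 probe sets. They fell into 12 cathepsins, 19 pump subunits and 15 other members. No probe set carried the name of the remaining listed gene, GAA, which is not analysed here, and 3 members were found only under older names (TPP1 as CLN2, CTSA as PPGB, ATP6V0E2 as C7orf32).

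RNA had been measured on Affymetrix porcine arrays in the masseter of the jaw and the biceps femoris of the hind limb of 5 female piglets in an intensive care model of acute quadriplegic myopathy. The piglets weighed 26.9 kg on average and were held under isoflurane with morphine and ketamine as needed, ventilated and immobile for 5 days. They received a continuous infusion of the neuromuscular blocker pancuronium bromide at 0.1 mg/kg/h, the corticosteroid betamethasone in boluses of 0.1 mg/kg, and Escherichia coli endotoxin at 36 µg/kg/h for 1 h, besides fluids, glucose, streptomycin and benzylpenicillin. Masseter had 5 arrays at day 1, labelled untreated controls, and 5 at day 5, labelled treated, from the same 5 animals. Biceps femoris had 4 arrays at each day from 4 of these animals. The source labels of its day 1 arrays call them treated, against their titles and the series text, which call them controls and were followed here. The animals are domestic piglets by the protocols, though their breed is tagged as wild boar. No arrays of animals without the drugs and endotoxin were analysed, so the time from day 1 to day 5 and the treatment cannot be told apart.

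Lysosomes break down proteins, lipids and sugars delivered by endocytosis and autophagy. Their enzymes work at acid pH, which the vacuolar proton pump maintains. The cytosolic V1 sector of the pump hydrolyses ATP, and its membrane sector, V0, carries the protons. In muscle, the autophagy and lysosome route is known to act beside the proteasome in wasting, and TFEB is known as a transcription factor that switches on many lysosomal genes.

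The median log2 value of an array lay between 6.09 and 6.16. Fibre markers identified the tissue: the mean of ACTA1, CKM, DES, MB, MYH7, MYL1, TNNC1 and TNNC2 lay between 12.53 and 14.40 on each of the 18 arrays. Values of the muscles had been normalized apart, so levels were not compared between them. Changes within a muscle, and the difference between these changes, were tested with limma and p-values adjusted over all 23999 probe sets. A change counted as a call at an adjusted p under 0.05. All values below are log2 signals, changes are log2 differences of day 5 minus day 1, and a gene is given by its probe set of the highest mean. In these bulk samples, fewer cells of a type and less RNA per cell cannot be told apart. Arrays of masseter from the same number are the same animal, and the other replicates are separate arrays of a group.

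By the brightest probe set of each gene, lysosomal genes were called higher far more often than lower in both muscles. In masseter, 11 of the 46 members rose and 2 fell, while 9.24% of all genes were called higher and 8.22% lower. In biceps femoris, 13 of 46 rose and none fell, against a background of 13.0% higher and 9.10% lower. The genes that rose in both muscles, which came from shared animals, numbered 10: the cathepsins CTSB, CTSD and CTSK, the pump subunits ATP6V0B, ATP6V0C and ATP6V0E1, and CD63, NPC1, NPC2 and SMPDL3A. Each of these 10 genes had only 1 probe set, so no further probe set could check its rise. The median change of the 46 members was 0.07 in masseter and 0.15 in biceps femoris, beside medians of -0.02 and -0.01 over all genes. Hence most members lay near 0, and 30 of them were called in neither muscle. The values of both days did not overlap for 10 members in masseter, where 14.2% of all genes did so, and for 19 members in biceps femoris, where 27.1% did.

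Among the cathepsins, 4 of 12 rose in masseter and 3 of 12 in biceps femoris, and none fell. That is 33.3% and 25.0%, beside 17.5% and 22.1% of all genes called either way and 9.24% and 13.0% called higher. The median change of the cathepsins was 0.37 in masseter and 0.10 in biceps femoris. The aspartic protease CTSD, a main lysosomal endopeptidase, had the largest rise of the group in both muscles.

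CTSD stood at 8.60, 8.73, 8.82, 8.70 and 8.70 on the masseter arrays of day 1 and at 9.07, 10.44, 10.33, 10.04 and 10.70 at day 5. Every day 5 array was above every day 1 array, but replicate 1 moved least. The rise was 2.65-fold (change 1.41, SE 0.25, adjusted p = 0.0058), and within animals it ranged from 0.47 to 2.001. In biceps femoris CTSD went from 8.62, 8.87, 8.48 and 8.45 to 10.09, 9.91, 10.14 and 10.29, again with no overlap, which was 2.83-fold (change 1.50, SE 0.12, adjusted p = 0.000282). The cysteine protease CTSB was at 10.94, 11.28, 11.28, 11.04 and 11.14 in masseter at day 1 and at 11.70, 12.39, 12.06, 12.23 and 11.81 at day 5. It rose 1.87-fold without overlap (change 0.90, SE 0.14, adjusted p = 0.00285), in 5 of 5 animals. In biceps femoris CTSB was at 10.97, 11.12, 10.76 and 10.85 at day 1 and at 11.39, 11.50, 11.86 and 11.48 at day 5. The groups were apart there as well, at 1.55-fold (change 0.63, SE 0.13, adjusted p = 0.0109).

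CTSK, a cysteine protease known for degrading collagen in osteoclasts, rose in both muscles with more scatter. Its masseter values were 8.30, 9.003, 8.84, 8.03 and 8.31 at day 1 and 8.90, 10.28, 9.32, 9.44 and 9.18 at day 5, so the lowest day 5 array lay below the highest day 1 array. Each of the 5 animals nonetheless went up, by 0.49 to 1.41, and the change was 0.93 (SE 0.26, adjusted p = 0.0385). The masseter call was lost without any 1 of day 1 replicates 1, 4 and 5 or day 5 replicates 2, 3, 4 and 5 (adjusted p up to 0.0931). In biceps femoris CTSK went from 9.16, 9.26, 8.66 and 8.61 to 9.33, 10.38, 10.54 and 9.71, with the groups just apart. The change was 1.07 (SE 0.29, adjusted p = 0.0346), and it missed the threshold without any 1 of day 1 replicates 1, 3 and 4 or day 5 replicates 2, 3 and 4 (adjusted p up to 0.0966).

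CTSL, a cysteine protease known as a gene induced in wasting muscle of rodents, was called in masseter and not in biceps femoris. In masseter it was at 9.58, 9.79, 9.67, 9.44 and 9.39 at day 1 and at 10.76, 10.73, 10.15, 10.79 and 10.74 at day 5. This 2.08-fold rise left no overlap (change 1.06, SE 0.14, adjusted p = 0.00123). A further, dimmer CTSL probe set rose by 1.82 (SE 0.48, adjusted p = 0.0302). In biceps femoris the values were 10.33, 9.78, 9.42 and 9.77 at day 1 and 10.04, 8.99, 10.16 and 10.24 at day 5. The groups overlapped there, and the change was 0.03 (SE 0.30, adjusted p = 0.962). It was 0.32 without day 5 replicate 2, the array at 8.99 (adjusted p = 0.336). For both CTSL probe sets another column of the annotation names CTSV, a close relative.

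**Figure D1:**
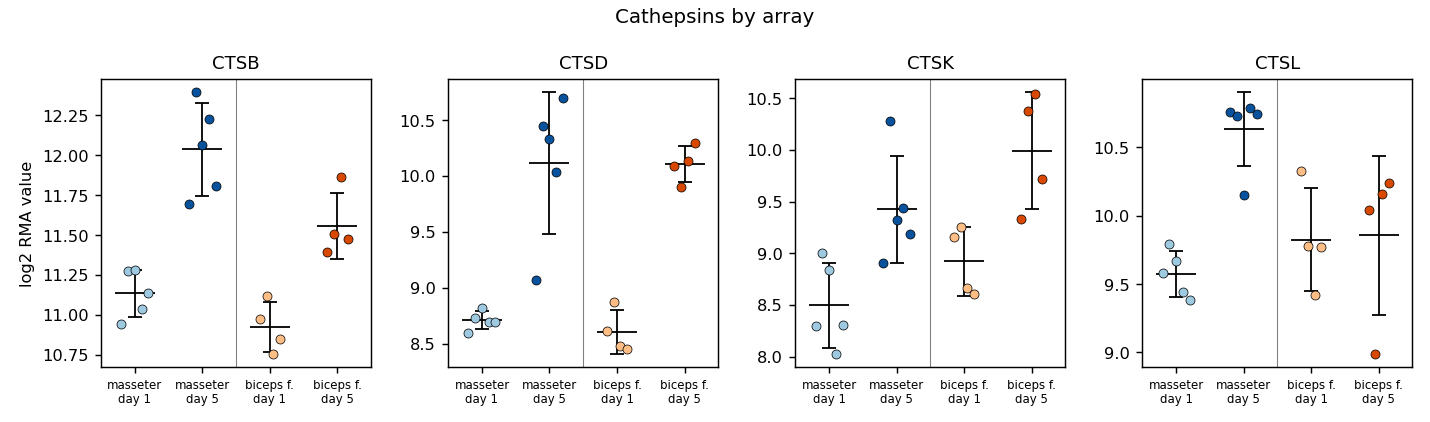
Log2 values of CTSB, CTSD, CTSK and CTSL on each array (points), with the group mean and SD (bars), by muscle and day. CTSB and CTSD at day 5 lay above every day 1 array in both muscles, whereas CTSL did so in masseter and overlapped in biceps femoris. Levels of the muscles were normalized apart and are compared only within a muscle.

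The other 8 cathepsins in masseter ranged from a change of -0.09 (CTSW) to 0.61 (CTSH) with adjusted p from 0.156 upward, and the other 9 in biceps femoris from -0.36 (CTSS) to 0.44 (CTSC). CTSS, a protease known from antigen-presenting cells, was at 8.76, 8.74, 9.34, 8.40 and 8.72 in masseter at day 1 and at 10.002, 9.23, 9.53, 8.47 and 8.80 at day 5. Replicates 1 and 3 of day 5 lay above every day 1 array and the others within their range, and the change was 0.42 (SE 0.27, adjusted p = 0.344). In biceps femoris CTSS changed by -0.36 (SE 0.22, adjusted p = 0.326). CTSO lay at percentile 29.1 of probe set means in masseter and 11.99 in biceps femoris, and the pump subunit ATP6V0D2 at 10.8 and 7.70, where changes may not show. The only probe sets of CTSW, CTSA and ATP6V0D2 are also annotated as FIBP, PLTP and ATP6V0D1, so their values may belong to those genes. The remaining 44 members lay above the 30th percentile in both muscles.

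In the proton pump, ATP6V0B, ATP6V0C and ATP6V0E1 of the V0 sector rose in both muscles. The sectors were not tested against each other. Of 9 V0 genes 3 rose and 1 fell in masseter, and 3 rose and none fell in biceps femoris. Of 10 V1 genes none was called in masseter (limma, 1 at an unadjusted p under 0.05) and 2 rose in biceps femoris, where 5 of the V1 and 5 of the V0 genes had an unadjusted p under 0.05. The median change in masseter was 0.09 for V0 and -0.03 for V1, and in biceps femoris -0.01 and 0.07. Over all genes, 4302 of 12503 in masseter and 4548 in biceps femoris had such an unadjusted p by limma. Of the 19 pump genes 21.1% were called in masseter and 26.3% in biceps femoris, near the 17.5% and 22.1% of all genes. Called higher were 3 of the 19 in masseter and 5 in biceps femoris, beside 9.24% and 13.0% of all genes. The median change over the 19 pump genes was -0.01 in masseter and 0.0012 in biceps femoris, beside the medians of all genes given above.

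ATP6V0B and ATP6V0C encode the proteolipids of the ring that turns in the membrane as protons pass. ATP6V0B was at 8.91, 9.15, 9.15, 9.08 and 9.24 in masseter at day 1 and at 9.49, 10.04, 9.92, 9.78 and 10.08 at day 5. All animals went up, by 0.58 to 0.89, for a 1.69-fold rise (change 0.76, SE 0.12, adjusted p = 0.00326). In biceps femoris it went from 8.41, 8.46, 8.31 and 8.03 to 9.40, 9.32, 9.38 and 9.32, a 2.07-fold rise (change 1.05, SE 0.11, adjusted p = 0.000503). The day 5 arrays of biceps femoris were thus nearly alike. ATP6V0C was at 11.36, 11.32, 11.40, 11.36 and 11.37 in masseter at day 1 and at 11.67, 12.03, 11.89, 11.73 and 12.05 at day 5 (change 0.51, SE 0.09, adjusted p = 0.00536). In biceps femoris it went from 10.92, 10.96, 11.01 and 10.87 to 11.34, 11.59, 11.53 and 11.51 (change 0.55, SE 0.08, adjusted p = 0.00284). Neither gene's groups overlapped in either muscle.

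ATP6V0E1, a small subunit of the same sector, was at 9.58, 9.75, 9.66, 9.61 and 9.70 in masseter at day 1 and at 9.70, 10.44, 10.11, 10.22 and 10.32 at day 5. Replicate 1 of day 5 lay within the day 1 range, and the others above it. The change was 0.50 (SE 0.13, adjusted p = 0.0281), a call lost without any 1 of day 1 replicates 1, 3, 4 and 5 or day 5 replicates 2, 4 and 5 (adjusted p up to 0.0689). In biceps femoris ATP6V0E1 rose from 9.28, 9.20, 9.27 and 9.28 to 10.11, 10.08, 10.04 and 9.97, which was 1.73-fold and far larger than the spread within either day (change 0.79, SE 0.07, adjusted p = 0.00037).

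The large a subunit, which forms the proton path beside the ring, has several isoform genes, of which ATP6V0A1 fell in masseter and none rose in either muscle. ATP6V0A1 was at 9.12, 8.73, 8.75, 8.90 and 9.19 in masseter at day 1 and at 8.02, 8.47, 8.19, 8.55 and 8.27 at day 5. It fell by 0.64 (SE 0.13, adjusted p = 0.0105), with every day 5 array below every day 1 array and 5 of 5 animals going down. In biceps femoris ATP6V0A1 changed by -0.40 (SE 0.20, adjusted p = 0.224), from 8.41, 8.45, 8.54 and 8.47 to 7.66, 7.72, 8.50 and 8.40, where replicates 1 and 2 were low and the other arrays lay near the day 1 values. ATP6V0A2 had a change of 0.77 in masseter (SE 0.25, adjusted p = 0.0635) and 0.95 in biceps femoris (SE 0.29, adjusted p = 0.0537). Neither passed, and each passed without 1 array, that of masseter without day 5 replicate 1 (adjusted p = 0.00952) and that of biceps femoris without day 5 replicate 2 (adjusted p = 0.034). ATP6V0E2, the isoform gene of ATP6V0E1, changed by -0.35 in masseter (SE 0.15, adjusted p = 0.159) and by -0.28 in biceps femoris (SE 0.09, adjusted p = 0.0585), and a further probe set of it fell by 0.80 in masseter (SE 0.19, adjusted p = 0.0203).

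Of the V1 sector, ATP6V1C1, whose subunit links the sectors, was called in biceps femoris. It went from 8.23, 8.35, 8.08 and 8.26 to 9.23, 9.01, 8.90 and 8.93, a 1.73-fold rise without overlap (change 0.79, SE 0.10, adjusted p = 0.00145). In masseter the values were 8.79, 8.72, 8.61, 8.98 and 8.98 at day 1 and 8.10, 8.76, 8.91, 9.09 and 8.87 at day 5, with a change of -0.07 (SE 0.17, adjusted p = 0.83). Replicate 1 of day 5 lay well below the day 1 range, and the groups overlapped. ATP6V1H, a regulatory subunit, rose by 0.28 in biceps femoris (SE 0.08, adjusted p = 0.0488), a call that ended without any 1 array other than day 5 replicate 2 (adjusted p up to 0.121). The catalytic ATP6V1A changed by -0.01 in masseter (SE 0.20) and by -0.19 in biceps femoris (SE 0.13), and the ATP-binding ATP6V1B2 by -0.05 (SE 0.15) and 0.14 (SE 0.13). The stalk subunit ATP6V1F changed by -0.47 in masseter (SE 0.19, adjusted p = 0.133) and by 0.23 in biceps femoris (SE 0.10, adjusted p = 0.156). The probe set taken for ATP6V1G2 is also annotated as DDX39B, and its change of -0.51 in biceps femoris (SE 0.18, adjusted p = 0.0904) may belong to that gene.

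**Figure D2:**
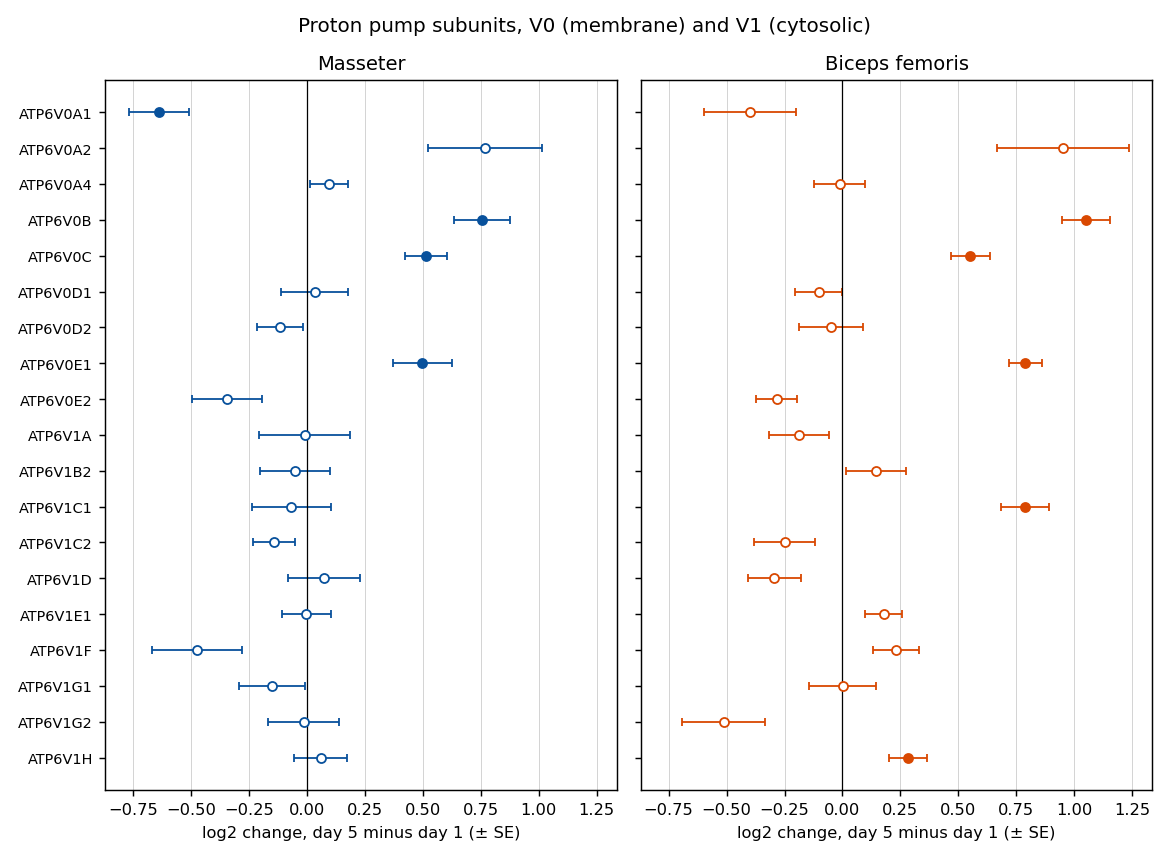
Log2 change from day 1 to day 5 (points) with its SE (bars) for the 19 pump subunits in masseter and biceps femoris. Filled points passed an adjusted p under 0.05. ATP6V0B, ATP6V0C and ATP6V0E1 were filled and above 0 in both muscles, while ATP6V1C1 was so in biceps femoris and near 0 in masseter.

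Further probe sets qualified these values. For ATP6V0D1, a V0 subunit, the brightest probe set stayed near 0 (0.03 in masseter and -0.10 in biceps femoris), but another fell by 0.79 in masseter (SE 0.21, adjusted p = 0.0299) and by 1.00 in biceps femoris (SE 0.15, adjusted p = 0.00264), and the third fell by 0.48 in biceps femoris (SE 0.09, adjusted p = 0.00878). Over the 85 member probe sets, 17 were called in masseter (12 higher, 5 lower) and 17 in biceps femoris (15 higher, 2 lower), which is 20.0% in each, beside 13.8% and 17.2% of all probe sets. Their median change was 0.003 in masseter and -0.03 in biceps femoris, beside -0.03 and -0.02 over all probe sets. These counts include the 46 brightest probe sets used above. Of the 39 further ones, 24 in masseter and 23 in biceps femoris had the sign of their gene's brightest probe set. In each muscle 4 of the 39 were called, so the excess of higher calls lies in the brightest probe sets.

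Of the 15 other members, 4 rose and 1 fell in masseter, and 5 rose and none fell in biceps femoris. That is 33.3% called in each muscle, beside 17.5% of all genes in masseter and 22.1% in biceps femoris. CD63, NPC1, NPC2 and SMPDL3A rose in both muscles. SMPDL3A, an acid sphingomyelinase-like phosphodiesterase, had the largest change of the 46 members in each muscle.

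NPC1 and NPC2 together export cholesterol from lysosomes, NPC2 as the soluble carrier and NPC1 as the membrane transporter. NPC1 was at 7.14, 6.998, 6.92, 6.76 and 6.72 in masseter at day 1 and at 8.20, 8.11, 7.81, 8.76 and 8.11 at day 5, a 2.45-fold rise without overlap (change 1.29, SE 0.16, adjusted p = 0.000981). In biceps femoris it went from 6.69, 6.89, 6.55 and 6.57 to 8.42, 7.73, 7.70 and 7.58, likewise without overlap (change 1.18, SE 0.19, adjusted p = 0.00351). Replicate 1 was the highest day 5 array there. NPC2 was at 8.12, 8.84, 8.45, 7.94 and 8.33 in masseter at day 1 and at 8.46, 9.88, 9.60, 9.65 and 10.37 at day 5. As with CTSD and ATP6V0E1, replicate 1 of day 5 moved least, and it overlapped with day 1. The change was 1.26 (SE 0.31, adjusted p = 0.0227), and the call was lost without any 1 of day 1 replicates 1, 4 and 5 or day 5 replicate 2 (adjusted p up to 0.0605). In biceps femoris NPC2 rose from 9.06, 9.15, 8.71 and 8.74 to 10.28, 9.98, 10.43 and 10.41, which was 2.56-fold with the groups well apart (change 1.36, SE 0.14, adjusted p = 0.000616).

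SMPDL3A was at 7.01, 7.85, 7.39, 6.62 and 6.14 in masseter at day 1 and at 8.34, 9.46, 9.30, 11.18 and 9.40 at day 5. The rise was 5.78-fold without overlap (change 2.53, SE 0.48, adjusted p = 0.00719), and it ranged from 1.32 to 4.56 between animals. In biceps femoris the day 1 arrays were split, at 10.29, 9.63, 6.69 and 6.51, and the day 5 arrays lay above all of them, at 11.37, 11.81, 12.38 and 11.41. The 11.1-fold mean rise (change 3.47, SE 0.85, adjusted p = 0.025) therefore averages small and large differences. Its call was lost without any 1 of day 1 replicates 3 and 4 or day 5 replicates 2, 3 and 4 (adjusted p up to 0.0688). CD63, a tetraspanin of late endosomes and lysosomes, was at 12.02, 11.998, 11.995, 11.82 and 11.85 in masseter at day 1 and at 12.74, 12.92, 12.80, 12.64 and 13.10 at day 5. Its rise of 1.87-fold was even across the animals, from 0.73 to 1.25 (change 0.90, SE 0.10, adjusted p = 0.000513). In biceps femoris CD63 went from 11.65, 11.77, 11.69 and 11.48 to 12.49, 12.63, 12.42 and 12.29, a 1.75-fold rise without overlap (change 0.81, SE 0.10, adjusted p = 0.0013).

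LIPA, the lysosomal acid lipase, was at 9.47, 9.63, 9.53 and 9.22 in biceps femoris at day 1 and at 9.64, 9.90, 10.09 and 10.08 at day 5. It rose by 0.46 (SE 0.13, adjusted p = 0.0443), and the call ended without any 1 array other than day 5 replicate 1 (adjusted p up to 0.113). Of its 3 further probe sets, 1 that is also annotated as KIAA1414 rose by 0.54 (SE 0.13, adjusted p = 0.0215). The others changed by -0.30 (SE 0.17, adjusted p = 0.296) and -0.15 (SE 0.12, adjusted p = 0.475), so the probe sets of LIPA disagree in sign. The mean of all 4 changed by 0.14 (adjusted p = 0.262). In masseter LIPA changed by 0.55 (SE 0.17, adjusted p = 0.0526).

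TPP1, tripeptidyl peptidase, went the other way. It was at 9.54, 9.35, 9.42, 9.55 and 9.55 in masseter at day 1 and at 9.34, 9.18, 8.84, 8.91 and 8.54 at day 5. It fell by 0.52 (SE 0.14, adjusted p = 0.0319), in 5 of 5 animals, with the groups just apart. The call was lost when the animals were fitted as blocks (adjusted p = 0.0659) and without any 1 of day 1 replicates 1, 3, 4 and 5 or day 5 replicates 3, 4 and 5 (adjusted p up to 0.0755). Its further probe sets were not called in masseter, with changes of -0.31 (SE 0.14, adjusted p = 0.171) and -0.38 (SE 0.12, adjusted p = 0.068). In biceps femoris TPP1 went from 9.10, 9.22, 9.34 and 9.08 to 8.27, 8.82, 8.99 and 8.71, also without overlap, with a change of -0.49 that did not pass (SE 0.15, adjusted p = 0.0635).

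The abundant membrane glycoproteins of the lysosome, LAMP1 and LAMP2, did not pass in either muscle. LAMP1 was between 9.87 and 10.24 in masseter at day 1 and between 10.16 and 10.41 at day 5 (change 0.26, SE 0.09, adjusted p = 0.0809). In biceps femoris it was between 9.99 and 10.16 at day 1 and between 10.19 and 10.39 at day 5, where the groups did not overlap (change 0.23, SE 0.08, adjusted p = 0.0937). LAMP2 changed by -0.05 in masseter (SE 0.12, adjusted p = 0.806) and by -0.05 in biceps femoris (SE 0.11, adjusted p = 0.825). Several sphingolipid and sugar hydrolases were not called either. GLA, alpha-galactosidase A, changed by 0.26 in masseter (SE 0.11, adjusted p = 0.138) and by 0.47 in biceps femoris (SE 0.20, adjusted p = 0.166). PSAP, the precursor of the saposins that help enzymes reach sphingolipids, changed by 0.23 (SE 0.12, adjusted p = 0.225) and by -0.01 (SE 0.13, adjusted p = 0.975). The 10 of these 15 members not called in each muscle ranged from -0.53 (GUSB, beta-glucuronidase) to 0.55 (LIPA) in masseter and from -0.51 (ASAH1, acid ceramidase) to 0.47 (GLA) in biceps femoris. A second GUSB probe set fell by 0.42 in masseter (SE 0.13, adjusted p = 0.0478). Of SMPD1, acid sphingomyelinase, 1 of 4 probe sets rose by 0.51 in biceps femoris (SE 0.10, adjusted p = 0.0114), while the brightest changed by -0.05 (SE 0.12).

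TFEB itself was not called in either muscle. Its masseter values were 7.68, 7.74, 7.47, 7.69 and 7.62 at day 1 and 7.80, 7.15, 7.42, 7.21 and 7.28 at day 5 (change -0.27, SE 0.12, adjusted p = 0.175). In biceps femoris they were 7.87, 8.05, 8.05 and 7.82 at day 1 and 7.39, 8.97, 8.51 and 8.33 at day 5 (change 0.35, SE 0.29, adjusted p = 0.474). Replicate 1 was the odd array in both muscles, the highest in masseter and the lowest in biceps femoris at day 5. The number need not name the same animal in biceps femoris. Without replicate 1 of day 5 the change of TFEB was -0.38 in masseter (adjusted p = 0.0166) and 0.66 in biceps femoris (adjusted p = 0.0255). Each array was left out in turn, and these were picked out after their TFEB values were seen, so these p-values by limma are not a test. No TFEB group is among the 8 flagged for a far array in the closing section. Other TFEB probe sets changed by -0.31 to 0.11 in masseter and by -0.21 to 0.09 in biceps femoris, and none of them was called.

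**Figure D3:**
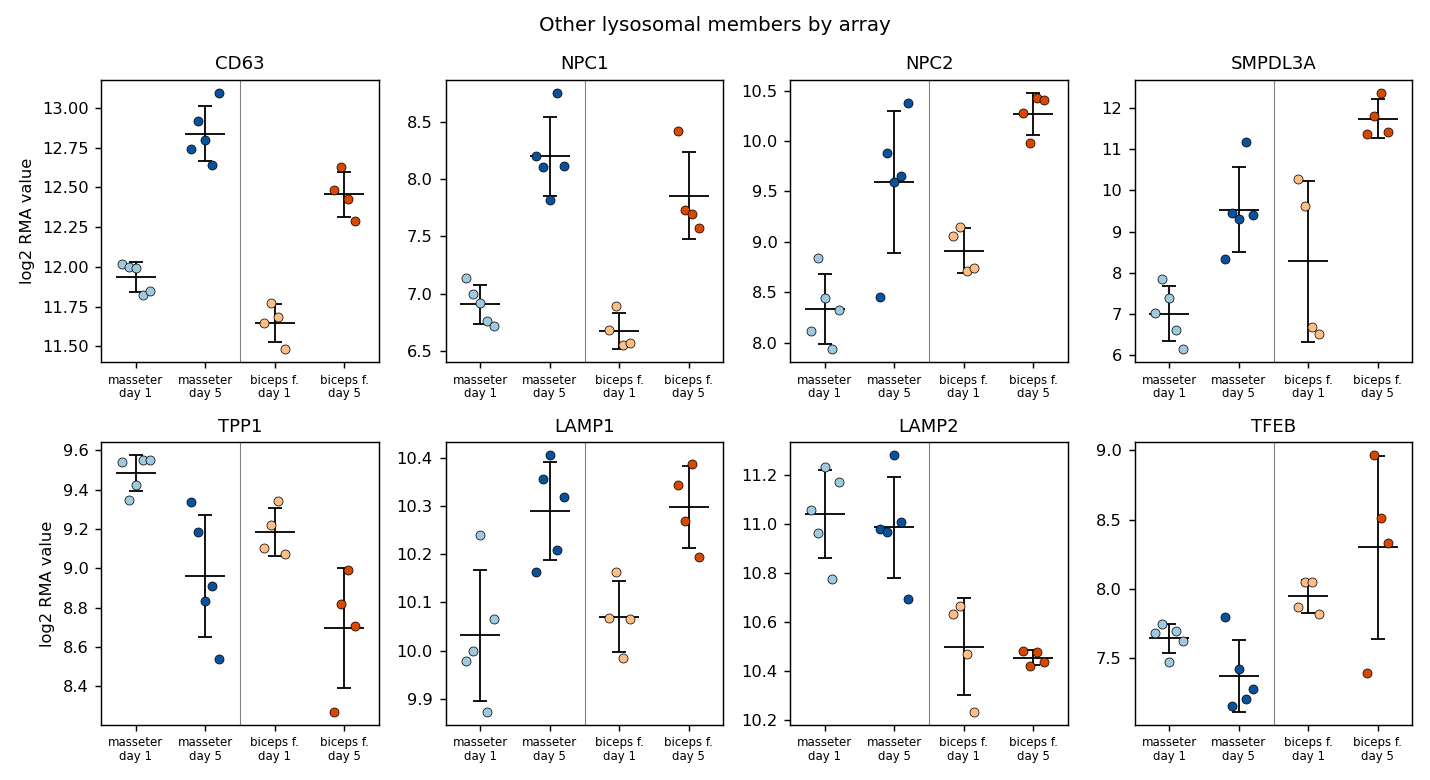
Log2 values on each array (points) with group mean and SD (bars) for CD63, NPC1, NPC2, SMPDL3A, TPP1, LAMP1, LAMP2 and TFEB, by muscle and day. CD63, NPC1 and SMPDL3A at day 5 lay above all day 1 arrays of the same muscle, TPP1 below, and LAMP2 and TFEB overlapped.

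**Figure D4:**
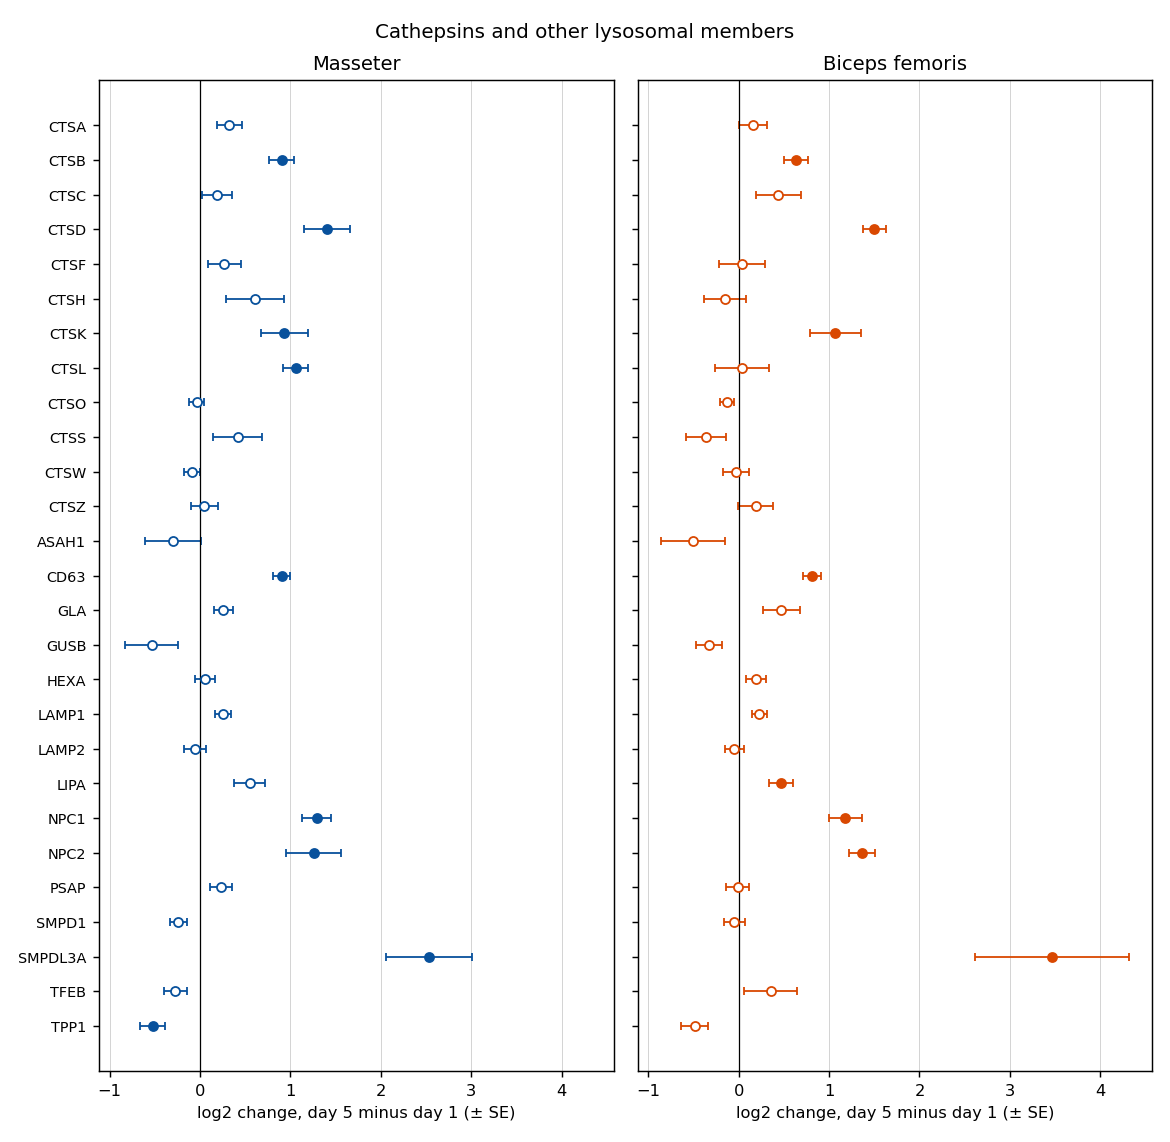
Log2 change from day 1 to day 5 (points) with its SE (bars) for the 12 cathepsins and the 15 other members in each muscle. Filled points passed an adjusted p under 0.05. The changes of SMPDL3A, 2.53 in masseter and 3.47 in biceps femoris, exceed those of all other members shown, and most open points lie within 0.5 of 0.

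A wider list of 73 lysosomal genes outside these members had 59 with a probe set. In masseter 10 of them rose and 2 fell, and in biceps femoris 11 rose and 3 fell, which is 20.3% and 23.7% called, beside 17.5% and 22.1% of all genes. The median change of the wider list was 0.10 in masseter and -0.04 in biceps femoris. Of the 28 further enzymes and activators, 1 rose and 1 fell in masseter, and 3 rose and 1 fell in biceps femoris. That is 7.14% and 14.3% called, below the shares of all genes. Changes of these enzymes were below 0 for 17 in masseter and 20 in biceps femoris, with medians of -0.08 and -0.09. The rise of the members above was thus not seen in this class as a whole. The acid phosphatase ACP2 rose by 1.62 in biceps femoris (SE 0.19, adjusted p = 0.000969) and by 1.03 in masseter (SE 0.26, adjusted p = 0.0259). IGF2R, the receptor that sorts mannose 6-phosphate tagged enzymes to lysosomes, rose by 0.97 in masseter (SE 0.20, adjusted p = 0.0114) and by 0.99 in biceps femoris (SE 0.13, adjusted p = 0.00143). LITAF, a late endosomal membrane protein, had the smallest p of the wider list in masseter (change 1.93, SE 0.32, adjusted p = 0.00413) and did not pass in biceps femoris (1.07, SE 0.52, adjusted p = 0.215). TMEM55B, a lysosomal membrane protein, rose by 0.56 in masseter (SE 0.11, adjusted p = 0.0082), with 0.35 in biceps femoris (SE 0.15, adjusted p = 0.176).

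OSTM1, partner of a lysosomal chloride transporter, rose by 1.05 in biceps femoris (SE 0.16, adjusted p = 0.00326), with 0.40 in masseter (SE 0.14, adjusted p = 0.0925). RRAGD, a GTPase that recruits the growth regulator mTORC1 to lysosomes, rose by 1.40 in biceps femoris (SE 0.23, adjusted p = 0.00487) and by 0.45 in masseter (SE 0.11, adjusted p = 0.0224). TFE3, a relative of TFEB, rose by 0.42 in masseter (SE 0.09, adjusted p = 0.014), with 0.46 in biceps femoris (SE 0.14, adjusted p = 0.0518). RRAGA, a partner of RRAGD in this GTPase complex, fell in both muscles, by 0.44 in masseter (SE 0.11, adjusted p = 0.0228) and by 0.42 in biceps femoris (SE 0.09, adjusted p = 0.0135). SORT1, a sorting receptor like IGF2R, fell by 1.12 in biceps femoris (SE 0.27, adjusted p = 0.0245), with -0.47 in masseter (SE 0.19, adjusted p = 0.123). The others that fell were AGA in masseter (change -0.58, SE 0.13, adjusted p = 0.0151) and GLB1 in biceps femoris (change -0.52, SE 0.15, adjusted p = 0.0486), both hydrolases of sugar chains. The pump's accessory genes and a further subunit gene of it (3 genes) were not called in either muscle. Of the 4 cathepsin inhibitors none was called in masseter and 2 rose in biceps femoris.

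The changes of both muscles were then compared directly. No member was called for a difference (limma, 0 of 46; 3 at an unadjusted p under 0.05), where 0.264% of all genes were. CTSL, called in masseter only, differed by 1.03 (SE 0.32, adjusted p = 0.197), and ATP6V1C1, called in biceps femoris only, by -0.86 (SE 0.22, adjusted p = 0.117). ATP6V1F differed by -0.71 (SE 0.24, adjusted p = 0.231). These genes are therefore not shown to respond differently in the muscles. ATP6V1C1 passed with array weights (adjusted p = 0.0342), and TFEB, which differed by -0.62 (SE 0.31, adjusted p = 0.428), passed without biceps femoris day 5 replicate 1 (-0.93, adjusted p = 0.0381). That array was the one picked out above by its TFEB value. SMPDL3A differed by -0.94 (SE 0.99, adjusted p = 0.762), CTSD by -0.09 (SE 0.32, adjusted p = 0.939) and NPC1 by 0.11 (SE 0.25, adjusted p = 0.907). The test took arrays of the muscles as independent, although the animals were shared.

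Markers of other cells moved beside these results, and their part in them was not tested. Of 16 macrophage and monocyte markers with a probe set, 2 were called higher in masseter (CYBB and TYROBP). That is 12.5%, beside 17.5% of all genes called either way and 9.24% called higher. There 12 passed an unadjusted p under 0.05 by limma, among them CD14 with a change below 0 (-0.32). Over all genes 4302 of 12503 did so in masseter, and 4548 in biceps femoris. Changes in masseter were above 0 for 12 markers and below 0 for 4 (CD14, ITGAM, MSR1 and SPI1), with a median of 0.75. In biceps femoris none was called (2 at an unadjusted p under 0.05) and the median was -0.07. The mean macrophage marker level per array was 6.39 to 6.84 at day 1 and 6.69 to 7.88 at day 5 in masseter, and 6.19 to 7.14 and 6.46 to 6.92 in biceps femoris. Replicate 1 of masseter at day 5 had the highest macrophage mean, 7.88, and the highest CTSS, and the lowest day 5 values of CTSD, NPC2 and ATP6V0E1. Without that array 16 members were called in masseter, 12 higher and 4 lower. Leaving out 1 masseter array at a time also moved the calls over all probe sets, from 3318 to between 2047 and 4628. No probe set was named CD68. Of 7 fibroblast markers 6 fell in biceps femoris, where their mean lay between 11.21 and 11.88 at day 1 and between 9.18 and 10.45 at day 5. In masseter 1 of them fell, with means between 10.54 and 11.51 at day 1 and between 9.22 and 11.17 at day 5. The fibroblast markers called were thus 85.7% in biceps femoris and 14.3% in masseter, beside 22.1% and 17.5% of all genes. PDGFRA was the fibroblast marker that went the other way, with changes of 0.39 in biceps femoris and 0.86 in masseter, neither called. The mean of the fibre markers in masseter lay between 14.23 and 14.40 at day 1 and between 13.88 and 14.29 at day 5. In biceps femoris it lay between 13.80 and 14.02 and between 12.53 and 13.59. There MYH7 (change -2.94) and MB (-2.56) were called lower, and TNNC1 changed by -2.09 without a call. ACTA1 (-0.02), CKM (-0.03), MYL1 (-0.10), TNNC2 (0.03) and DES (0.30) were not called in that muscle. In masseter MB was called lower (-0.85) and DES higher (0.56). Of 5 endothelial markers 1 rose in masseter and 2 fell in biceps femoris, which is 20.0% and 40.0% called, beside these same shares of all genes. Both adipocyte markers, ADIPOQ and LEP, had changes below 0 in each muscle, with medians of -1.08 in masseter and -0.58 in biceps femoris, and neither was called (limma, 1 and 0 at an unadjusted p under 0.05). Of 4 neutrophil markers none was called in either muscle (0 at an unadjusted p under 0.05 by limma in each). The 4 lymphocyte and pan-leukocyte markers were not called in either muscle (limma, 1 and 0 at an unadjusted p under 0.05). Among them PTPRC, of all leukocytes, changed by -0.21 in masseter (SE 0.09) and by -0.03 in biceps femoris (SE 0.09). In masseter CD2, CD3D and CD3E changed by 0.03, -0.02 and 0.17.

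**Figure D5:**
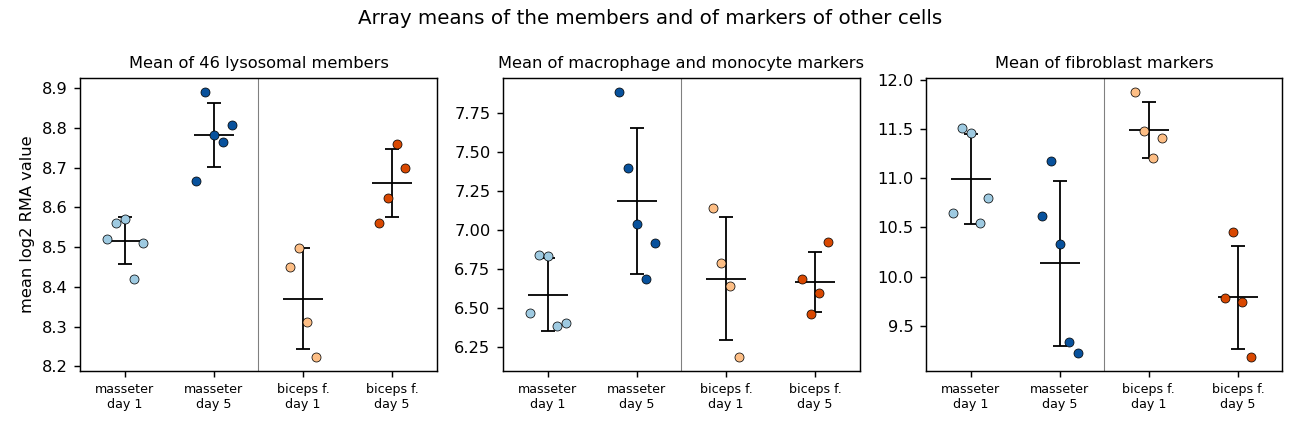
Mean log2 value per array (points), with group mean and SD (bars), of the 46 lysosomal members, of 16 macrophage and monocyte markers and of 7 fibroblast markers. The members' means lay between 8.42 and 8.57 at day 1 and between 8.67 and 8.89 at day 5 in masseter, and between 8.22 and 8.50 and between 8.56 and 8.76 in biceps femoris. Macrophage means overlapped between the days in both muscles, and fibroblast means at day 5 lay below day 1 in biceps femoris.

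A sign of RNA quality also moved with the day in biceps femoris, and its part was not tested. The mean of the actin control probe sets at the 3′ end minus that at the 5′ end was 1.40, 1.37, 1.47 and 1.65 at day 1 and 1.59, 1.13, 1.11 and 1.11 at day 5. Replicates 2, 3 and 4 of day 5 thus lay below every day 1 array, and replicate 1 did not. Without that replicate 13 members were called, all higher. Over all probe sets, leaving out 1 biceps femoris array at a time gave 2951 to 4412 calls, where 4117 were reported. In masseter the difference lay between 1.94 and 2.05 at day 1 and between 2.01 and 2.12 at day 5.

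In biceps femoris the BioC spike-in, a control RNA, set day 1 replicates 1, 2 and 3 (8.87 to 9.13) apart from day 1 replicate 4 (7.97) and the day 5 arrays (7.43 to 7.78). With these sets as a block, which compares day 5 with day 1 replicate 4 alone, 8 of the 13 members were called, namely CD63, CTSD, NPC2, SMPDL3A, ATP6V0B, ATP6V0C, ATP6V0E1 and ATP6V1C1. CTSB (change 0.71, adjusted p = 0.111), CTSK (1.38, adjusted p = 0.15), NPC1 (1.29, adjusted p = 0.0604), LIPA (0.70, adjusted p = 0.084) and ATP6V1H (0.34, adjusted p = 0.214) kept their sign and missed the threshold. No change can be computed among day 1 replicates 1, 2 and 3, since they share a day. The authors' deposited table for biceps femoris calls 13 of the 46 members higher at an adjusted p under 0.05, with CTSD at a log2 fold change of 1.50 and an adjusted p of 0.000287. It was made from the same 8 arrays, so it is not an independent check. The authors' deposited short list of 89 genes higher at day 5 in biceps femoris holds none of the 46 members. Members such as CTSD (2.83-fold) and NPC2 (2.56-fold) were nonetheless called higher there. How genes were picked for that list was not examined, so absence from it does not mean that a member was unchanged.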

How the data were processed

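Muscle RNA was measured on 18 Affymetrix arrays. The log2 values deposited by the authors had been summarised with RMA, per the submitters' processing notes; an array's sorted values differed by at most 0.223 within masseter and 0.23 within biceps femoris but by at least 0.517 between them, so the muscles had been normalized apart. The authors' deposited biceps femoris table also holds log2 fold changes, p-values, adjusted p-values and a B-statistic score, and their short list a fold ratio, per the file headers.

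The arrays hold 24123 probe sets, from which the 124 controls of the manufacturer were removed. Changes were fitted with limma 3.58.1 in R 4.3.3 (lmFit, eBayes, two-sided), each muscle alone, with Benjamini-Hochberg adjustment over 23999 probe sets. The difference between the changes came from 1 fit of all 18 arrays. A gene was taken as its probe set of the highest mean. The number of arrays limits the precision. The script was tested on simulated data.

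Members, lists and tests were chosen with earlier results of these data known. Called members, up to 8 per group by smallest p, a fixed list and up to 4 wider-list genes per muscle were named; CTSC, CTSH, CTSW, CTSO, ASAH1, GUSB, SMPD1, RRAGA, SORT1, AGA, GLB1 and pump genes not called were named after their values were seen. Array numbers pair animals in masseter, per the labels' descriptions. The deviations of the same animal's arrays from the group means correlated by -0.0297, 0.122, -0.00983, 0.117 and 0.00726. Alternatives were a replicate block, array weights, trended and robust eBayes, quantile normalization, a filter on the lowest 30 percent, means of probe sets, 1 fit of all arrays, spike-in sets as a block and leaving out each array.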

Additional observations from a re-analysis of the deposited data

Results flagged for a closer look

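For 8 of the 184 groups of arrays examined (46 members in 4 groups), 1 array stood far from the others of its group by Dixon's criterion, which chance does for about 1 in 20 groups. CTSF read 9.18 on masseter day 5 replicate 3, where the other arrays lay between 8.27 and 8.44. CTSL, the protease called in masseter, read 10.15 on the same array, against 10.73 to 10.79. In biceps femoris CTSL read 8.99 on day 5 replicate 2, against 10.04 to 10.24.

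CTSZ, a carboxypeptidase, read 7.24 on biceps femoris day 1 replicate 4, against 7.96 to 8.07, and GUSB read 7.55 on day 1 replicate 3, against 7.36 to 7.39. Among pump genes, ATP6V0A2 read 5.84 on masseter day 1 replicate 1, against 5.33 to 5.47, and ATP6V1F read 10.51 on that array, against 9.91 to 10.07. ATP6V0D2, near the bottom of the signal range, read 3.20 on biceps femoris day 5 replicate 1, against 3.39 to 3.41.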

How the results depend on the processing

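No value for a member changed sign while called. In masseter the 13 calls among members became 12 with the replicate block, which follows the animals and lost TPP1 alone, and 12 to 17 over all settings that kept every array. Leaving out 1 array at a time gave 9 to 16 calls in masseter and 9 to 13 in biceps femoris. The 15 other members had 8 calls in masseter with array weights, where 5 were reported, and 3 to 7 with 1 array left out. The corresponding range was 3 to 6 in biceps femoris, 3 to 4 for cathepsins and 3 to 5 for the pump in masseter, and 2 to 3 and 4 to 6 in biceps femoris. Over all probe sets, 3318 calls in masseter became 2047 to 4628.

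In biceps femoris the spike-in sets as a block left 8 member calls of 13, 1 of 3 for cathepsins, 3 of 5 for other members, and 1306 of 4117 over all probe sets, from a comparison that rests on 1 day 1 array. The replicate block left 9 member calls and 1 cathepsin there, without CTSB (adjusted p = 0.0503), CTSK (0.0617), LIPA (0.0976) and ATP6V1H (0.116). Numbers of biceps femoris arrays are not said to name animals, and same-numbered deviations correlated by 0.0964, -0.109, 0.112 and -0.21.

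For the difference between the muscles, array weights gave 1 member, the pump gene ATP6V1C1, where 0 were reported, and leaving out 1 array gave 0 to 1, the exception being TFEB without biceps femoris day 5 replicate 1. Over all probe sets, 48 calls became 527 with array weights, 24 with trended and robust eBayes, 9 to 266 with 1 array left out, and 0 with the replicate block (limma, 2800 at an unadjusted p under 0.05). The cause of these shifts was not tested. Names from a platform annotation table were not run as an alternative, since none was at hand.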
